A study of Mus musculus with 4 samples.

Results

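The carbonic anhydrase genes described here are Car2, Car4, Car5b, Car7, Car8, Car9, Car12 and Car13, 8 of the 16 genes of this enzyme family among the 51508 genes listed in the count table. They were chosen by gene name from a table whose differences between the groups were already known, so their fold changes and calls are given as a description and support nothing. The rule set no threshold: the member with fewest counts, Car5b, had 18 over the 4 libraries, and the non-member with most, Car15, had 29. RNA sequencing libraries came from intestinal organoids, cultures of intestinal epithelium that organize themselves into crypt-like structures, of C57BL/6 mice that were wild type and 8 to 12 weeks old. All libraries were made 36 hours after irradiation with 8 Gy, 2 from organoids given vehicle and 2 from organoids given SGC-CBP30, a small molecule that binds the acetyl-lysine reading bromodomains of the acetyltransferases CBP and p300. No unirradiated group was analysed here, so each difference is between 2 irradiated groups. The treatment label of SGC-CBP30 replicate 2 reads SGC-CBP31, and its title places it with SGC-CBP30. The labels do not say whether replicates were separate cultures or animals, so the spread between them may be technical.

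Carbonic anhydrases are zinc enzymes that convert carbon dioxide and water to bicarbonate and a proton, and back. Cytosolic forms supply ions to the exchangers and channels of the cell membrane, membrane-bound forms work on the outer face, and mitochondrial forms supply bicarbonate to carboxylases. In the intestinal epithelium they serve bicarbonate secretion, electroneutral sodium chloride uptake and control of pH at the cell surface. Some family members lack enzyme activity and act by binding other proteins.

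The libraries held 16433117 to 18087250 counts, of which all carbonic anhydrase genes together took 4806 to 7278. Epithelial markers (Epcam, Cdh1, Vil1 and 4 others) summed to 7122 to 8984 CPM (counts scaled to a common library size with trimmed mean of M values, TMM, factors) in each library. The lists for immune cells, stroma with endothelium, and red cells each summed to at most 4.87 CPM, and 3 of the 7 red cell genes were at 0 in every library. The red cell list matters here because Car1 and Car2 are also red cell enzymes.

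Promoter windows are shown for the membrane-bound members, which include the most abundant gene, Car9, and the members with the largest differences, Car12 and Car4. Each runs from 250 bases before to 50 bases after a RefSeq transcription start (GRCm38.p6), 5′ to 3′ on the strand of the gene. Capitals mark ACGTG on either strand, a form of the core of the hypoxia response element bound by hypoxia-inducible factors. Other forms of that core, such as GCGTG, were not searched. The Car9 window is chr4:43506776-43507075, the Car12 window chr9:66713436-66713735 and the Car4 window chr11:84957504-84957803, all on the plus strand.
Car9: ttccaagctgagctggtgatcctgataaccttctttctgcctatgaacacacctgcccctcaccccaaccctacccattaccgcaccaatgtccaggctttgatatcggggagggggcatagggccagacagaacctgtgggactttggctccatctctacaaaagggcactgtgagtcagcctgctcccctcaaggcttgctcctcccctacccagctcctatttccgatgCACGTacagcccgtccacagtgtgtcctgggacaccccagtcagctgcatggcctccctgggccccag
Car12: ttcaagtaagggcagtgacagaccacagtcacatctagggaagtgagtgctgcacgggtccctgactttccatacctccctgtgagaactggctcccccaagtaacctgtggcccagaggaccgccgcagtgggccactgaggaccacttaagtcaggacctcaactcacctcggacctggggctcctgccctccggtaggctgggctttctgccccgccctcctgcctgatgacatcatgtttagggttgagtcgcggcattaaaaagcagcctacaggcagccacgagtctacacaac
Car4: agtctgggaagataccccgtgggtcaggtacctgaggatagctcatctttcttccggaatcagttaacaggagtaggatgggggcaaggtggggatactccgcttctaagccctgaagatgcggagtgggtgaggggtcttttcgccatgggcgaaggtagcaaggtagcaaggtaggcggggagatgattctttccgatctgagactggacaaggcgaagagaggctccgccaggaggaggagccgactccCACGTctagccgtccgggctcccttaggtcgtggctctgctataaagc

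Windows were available for 5 of the 8 members, 7 windows in all since Car7 has 3 starts. Car9 held 1 ACGTG match, on the opposite strand, beginning 18 bases before the start. Car4 held 1, also on the opposite strand, beginning at base 3 of the transcript, while Car12, Car5b and the Car7 windows held none. ACGTG was present in 19.6% of all 32851 promoter windows. The AP-1 motif TGANTCA (7.81% of windows) matched 77 bases before the Car9 start, and TATAAA (13.6% of windows) matched at base 43 of the Car4 transcript. The CDX2 core TTTATG (11.9% of windows) and the HNF4A motif CAAAGTCCA (0.475% of windows), searched on both strands, had no match in a member's window. A match is a string of letters and does not show binding.

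With SGC-CBP30, 6 of the 7 tested carbonic anhydrase transcripts were called lower, and Car7 was not called. Car4 is among these 6, though it entered the test through its vehicle counts alone. By group means Car12 was 65.9% lower, Car8 37.1%, Car9 34.0%, Car13 22.8% and Car2 22.5%, and Car4 had no counts in either treated library. Car5b had too few counts to be tested, and 0 members were called higher (quasi-likelihood test of edgeR, with a Benjamini-Hochberg threshold of 0.05). Over all 14684 tested genes 30.0% were called, 16.3% lower and 13.6% higher. That split, 2397 lower and 2004 higher, turned to 1924 lower and 2907 higher with library totals as the scale, where 5 members were called lower and 0 higher. In the same 7 members both treated libraries lay below both vehicle libraries, as they did in 31.0% of all tested genes. The median log2 fold change of all tested genes was 0.0096. Because the members were chosen with these values known, nothing is read from the member count against that background. Fewer cells of a type and less RNA per cell cannot be told apart in these bulk libraries.

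**Figure D1:**
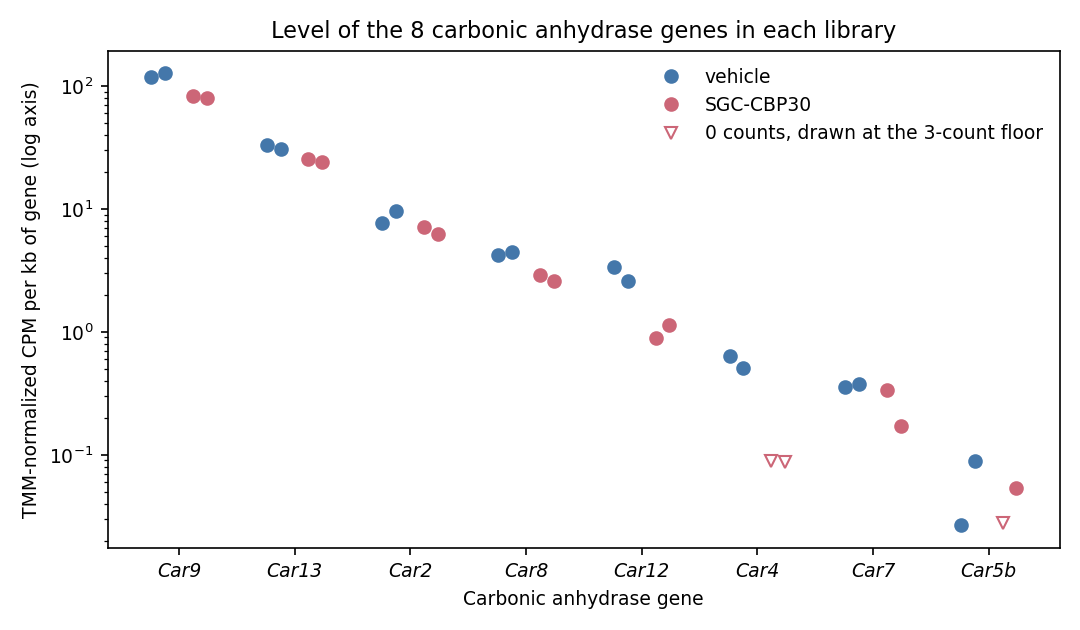
Level of each of the 8 genes in the 4 libraries, as TMM-normalized CPM per kilobase of gene length on a log axis, with vehicle in blue and SGC-CBP30 in red. Open triangles are libraries with 0 counts, drawn at the level that 3 counts would give. Car9 is the highest at 79.3 to 127 and Car5b the lowest at up to 0.0888, and the treated points lie below the vehicle points in every gene except Car5b.

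Per kilobase of gene length, the scale on which genes can be compared, the vehicle order of mean levels was Car9, Car13, Car2, Car8, Car12, Car4, Car7 and Car5b. No neighbours in this order overlapped between their 2 vehicle libraries; Car4 (0.634 and 0.510 CPM per kilobase) and Car7 (0.358 and 0.379) came closest among the lower genes. In the treated libraries the order was the same except for Car4. Summed over all 16 family genes, the level was 168 and 176 CPM per kilobase in vehicle libraries and 119 and 114 in treated ones, 32.1% less by the means. Car9 made up 70.3% and 72.1% of that sum in vehicle libraries and 68.9% and 69.5% in treated ones. Car12 made up 2.02% and 1.46% in vehicle libraries and 0.753% and 0.992% in treated ones, so its share was smaller in both treated libraries while that of Car9 stayed near its vehicle values.

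**Figure D2:**
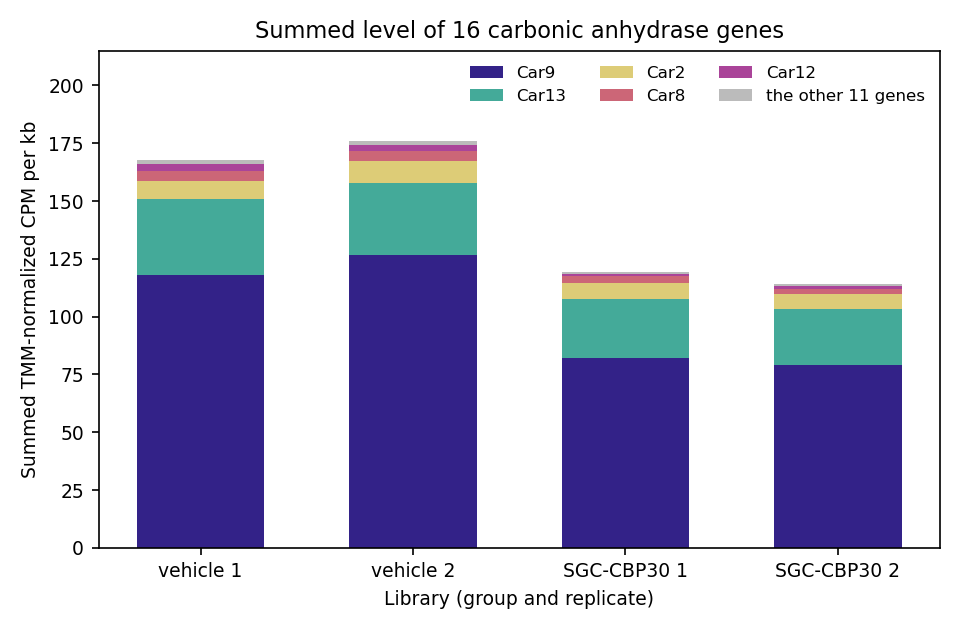
Summed level of the 16 carbonic anhydrase genes in each library, as stacked TMM-normalized CPM per kilobase on a linear axis from 0, by gene. The vehicle bars reach 168 and 176 and the SGC-CBP30 bars 119 and 114, and Car9 is the largest segment in each.

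Among the cytosolic enzymes, Car2 (ENSMUSG00000027562) encodes the fast, widely expressed isoform that supplies bicarbonate and protons to membrane transporters. It had 18.7 and 23.3 CPM in vehicle libraries and 17.3 and 15.3 CPM in treated ones. The groups did not overlap, but the nearest libraries differed little. Its log2 fold change was -0.37 ± 0.13 (SE), with an edgeR adjusted p of 0.0426, the weakest of the 6 calls. Without vehicle replicate 2 the log2 fold change was -0.20 (adjusted p = 0.470), and without SGC-CBP30 replicate 2 it was -0.27 (adjusted p = 0.178). The call was also lost with DESeq2 (adjusted p = 0.139), with scaling by library totals (adjusted p = 0.101) and with upper quartile factors (adjusted p = 0.0674).

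Car13 (ENSMUSG00000027555), a cytosolic isoform known from gut and other tissues, was the second most abundant member. It had 75.7 and 71.1 CPM in vehicle libraries against 58.1 and 55.2 CPM in treated ones, a log2 fold change of -0.37 ± 0.08. The replicates of each group lay close together and the groups were apart. Its fold change was close to that of Car2, and the Car13 to Car2 ratio per kilobase was 4.26 and 3.21 in vehicle libraries and 3.53 and 3.81 in treated ones, so the ratio overlapped between groups.

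Car13 and Car2 are the outer genes of a cluster of 4 on chromosome 3 (GRCm38, 14641727 to 14900770, 259 kilobases), with Car1 and Car3 between them. Car13 spans 14641727 to 14663002 and Car2 14886273 to 14900770, both on the plus strand. Car1, a cytosolic isoform of red cells and colonic surface epithelium, and Car3, a cytosolic isoform of muscle and fat, had 0 counts in all 4 libraries. A floor of 3 counts, used here for a gene at 0, equals 0.166 to 0.183 CPM of library totals per library. The detected members of the cluster are therefore its ends.

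Car7 (ENSMUSG00000031883, chromosome 8, 104534689 to 104550343, plus strand), a cytosolic isoform best known from neurons, was near the limit of detection. It had 23 and 22 counts in vehicle libraries and 21 and 11 in treated ones. SGC-CBP30 replicate 2 alone was well below the rest. The log2 fold change was -0.53 ± 0.49 and was not called. The ratio of pooled treated to pooled vehicle counts was 0.691, with an exact binomial 95% interval for counting error of 0.425 to 1.11, so no difference was detectable at this depth. The neural and glial marker list summed to 11.4 and 11.2 CPM in vehicle libraries and to at least 18.2 CPM in both treated ones, and its part in the Car7 values was not tested.

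Among the membrane-bound enzymes, Car9 (ENSMUSG00000028463, chromosome 4, 43506966 to 43513729, plus strand) encodes a transmembrane form with an outward-facing active site and is a widely used marker of hypoxia. It had 272 and 292 CPM in vehicle libraries and 189 and 183 CPM in treated ones. The gap between groups was several times the gap within them. Its log2 fold change was -0.60 ± 0.06, the smallest standard error of the members, and the mean dropped by 95.9 CPM, more than in all other members together. The antisense gene Gm12454 overlaps its start, and strand use in counting is not given in the sources used here. Gm12454 had 138 and 102 counts in vehicle and 98 and 126 in treated libraries, against 4798, 4657, 3220 and 3206 for Car9.

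Car12 (ENSMUSG00000032373, chromosome 9, 66713686 to 66766845, plus strand) encodes a second transmembrane form, found on basolateral membranes of epithelia. It had 25.7 and 19.6 CPM in vehicle libraries and 6.82 and 8.60 CPM in treated ones. The replicates differed within each group, yet the lower vehicle library was still more than 2 times the higher treated one. Its log2 fold change of -1.55 ± 0.16 was the largest of the members that had counts in both groups, and 2.48% of all tested genes had a lower one. The Car9 to Car12 ratio per kilobase, which does not depend on the scaling of libraries, was 34.8 and 49.2 in vehicle libraries and 91.5 and 70.0 in treated ones, so Car12 was lower relative to Car9 too.

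Car4 (ENSMUSG00000000805, chromosome 11, 84957786 to 84966044, plus strand) encodes a form anchored to the outer membrane by a lipid and is used as a marker of colonic and distal enterocytes. It had 22 and 16 counts in vehicle libraries and 0 in both treated ones. Against a floor of 3 counts over the treated group, it was at least 13.0-fold lower. The exact binomial 95% interval of the ratio of treated to vehicle counts, a wider limit than that floor, reached up to 0.0991. Against either treated library alone, with 3 counts as the floor, the bound was 6.41-fold without SGC-CBP30 replicate 2 and 6.63-fold without replicate 1. Car4 entered the test through its vehicle counts alone, so its call followed from where it was high. In the authors' deposited table Car4 has a p-value of 0.000124 from an unnamed test and an adjusted p of 1. Car13, with a larger p-value of 0.000600 there, has an adjusted p of 0.00506. The adjusted p of Car4 can therefore stand for a gene left out of the adjustment, and nothing is read from it.

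As a description of genes with the pattern of Car4, the named protein-coding genes most like it, by the same 2 libraries at 0 among 4 and by most vehicle counts, were C87414 with 46 vehicle counts, Cyp2c70 with 32, Gp6 with 27, and Trh and Mymx with 25 each. Car4 ranked 2 in this order. Trh rested mainly on 1 library, with 5 and 20 counts, and Cyp2c70 belongs to a family of similar genes, so its counts are uncertain.

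Car5b (ENSMUSG00000031373, chromosome X, 163976822 to 164027997, minus strand) encodes the mitochondrial form found outside the liver. It had 3 and 9 counts in vehicle libraries and 0 and 6 in treated ones, too few to be tested. The groups overlapped. The pooled count ratio was 0.486 with an exact binomial 95% interval of 0.150 to 1.40, so no difference was detectable at this depth.

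Car8 (ENSMUSG00000041261, chromosome 4, 8143362 to 8239041, minus strand) encodes a family member without enzyme activity that binds the inositol trisphosphate receptor ITPR1, a calcium release channel. It had 16.3 and 17.3 CPM in vehicle libraries and 11.2 and 9.91 CPM in treated ones, with the groups well apart. Its log2 fold change was -0.67 ± 0.14. The receptor gene Itpr1 fell as well, from 25.1 ± 0.638 to 12.7 ± 0.781 CPM (SD, n = 2), a log2 fold change of -0.99 ± 0.13, while Itpr3 rose by 0.36 ± 0.06 on the log2 scale and Itpr2 was not called.

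**Figure D3:**
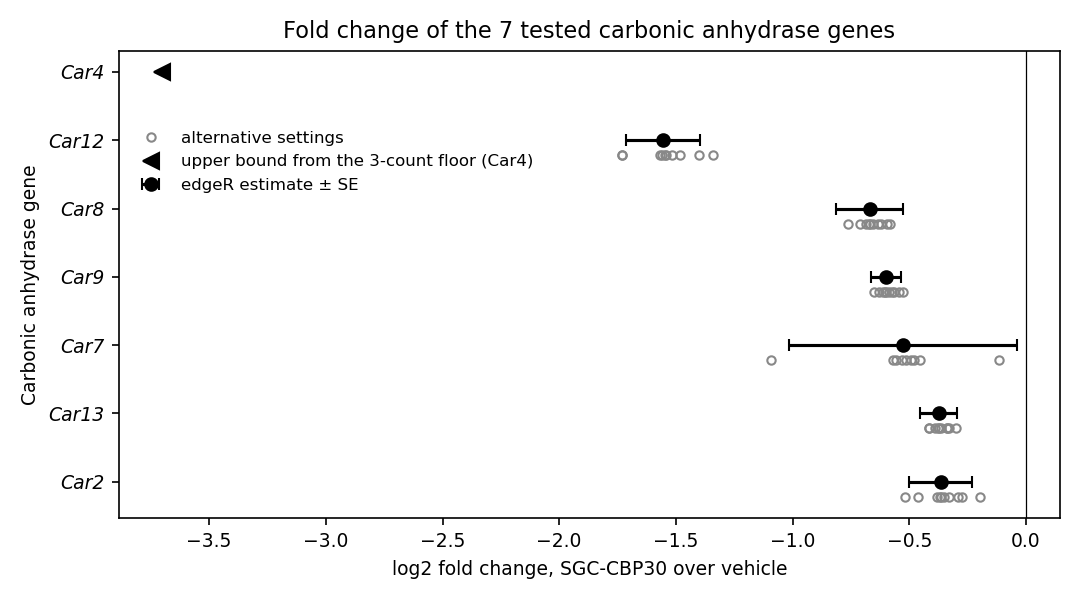
Log2 fold change (SGC-CBP30 over vehicle) for the 7 tested members, with bars of 1 SE and open circles for the alternative settings. The triangle for Car4 is an upper bound from the floor of 3 counts. The estimates run from -1.55 for Car12 to -0.37 for Car2, and among the genes drawn with open circles those of Car7 spread widest.

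The 8 family genes that are not members were at or near 0. Besides Car1 and Car3 at 0, Car5a and Car10 had 1 count each in 1 vehicle library. Car14, a transmembrane form, had 10 and 8 counts in vehicle and 5 and 5 in treated libraries, and Car15 had 9, 5, 5 and 10 in the same order. The secreted form Car6 had 2, 2, 2 and 1. Car11, which lacks enzyme activity, had 0 in both vehicle libraries and 4 in each treated one, the only family gene with more counts in both treated libraries than in both vehicle ones, at levels close to the 3-count floor. None of the 8 had enough counts to be tested. Car15 overlaps the gene Gm20518 on the same strand and Car14 the abundant gene Aph1a on the other, so their few counts are uncertain.

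The authors' deposited table gives a negative log2 fold change for all 8 members. In it Car9, Car12, Car8 and Car13 had an adjusted p under 0.05 with log2 fold changes of -0.60, -1.55, -0.67 and -0.37, and Car2 had an adjusted p of 0.208. There, 6.91% of genes with an adjusted p were lower under the same threshold. That share is over 23932 genes, of which 9744 carry the same adjusted p as Car4, the highest possible. Such a value can stand for a gene left out of the adjustment, so the share among genes that were adjusted may be higher.

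**Figure D4:**
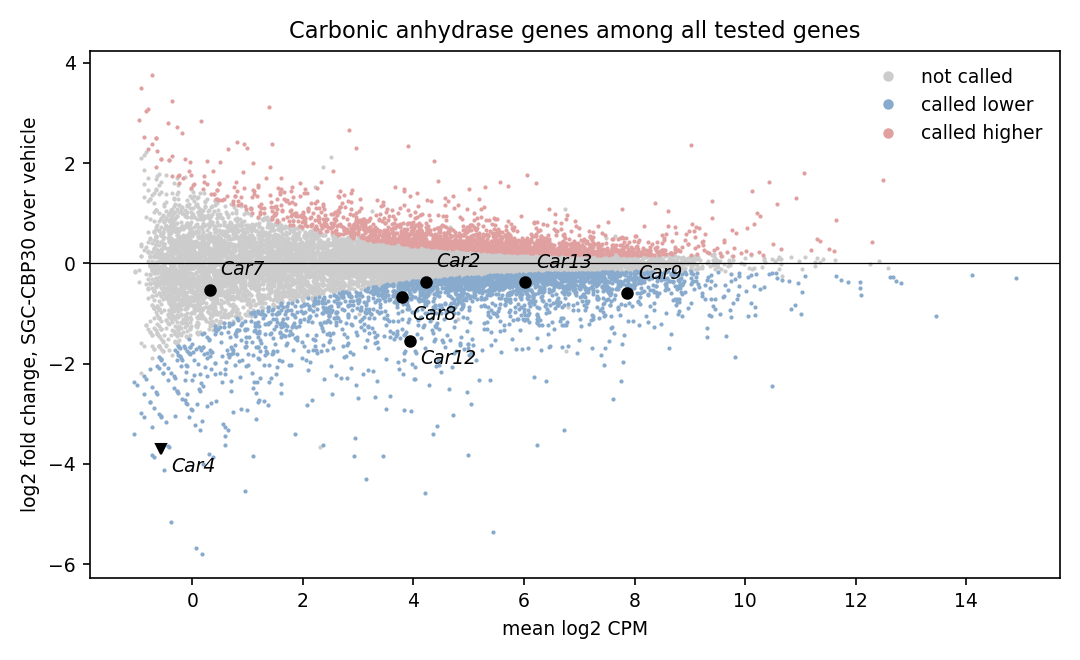
Log2 fold change (SGC-CBP30 over vehicle) against mean log2 CPM for all tested genes with counts in both groups, coloured by call, with the 7 tested members in black. Car4 is drawn at its upper bound. The members lie below 0 over the whole range of levels, Car12 with 2.48% and Car9 with 11.5% of all tested genes at a lower fold change.

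Carbonic anhydrases work beside transporters of bicarbonate and chloride. Over all tested genes 16.3% were called lower and 13.6% higher, the background for this list and those that follow. No list count was tested against it. Of 13 tested genes of the bicarbonate and chloride list 7 fell, 0 rose and 6 were not called, with a median log2 fold change of -0.58. With library totals as the scale 6 fell and 1 rose. Slc4a7, a sodium bicarbonate cotransporter gene, fell from 399 ± 18.3 to 192 ± 19.1 CPM (SD, n = 2). Slc4a5, of the same cotransporter family, had a log2 fold change of -1.22 ± 0.09 (SE). The apical chloride bicarbonate exchanger genes Slc26a3 and Slc26a6 fell by 0.88 ± 0.07 and 0.58 ± 0.06. The 6 genes not called were Slc4a2 (log2 fold change 0.17), Slc4a3 (0.75), Slc26a4 (-0.23), Slc4a8 (-0.86), Slc4a10 (-0.87) and Slc12a2 (-0.044).

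Of 11 tested proton and ammonia transport genes 4 fell, 1 rose and 6 were not called, with a median of 0.071. Slc9a3, the sodium proton exchanger of the brush border, fell from 325 ± 5.93 to 146 ± 4.91 CPM. The monocarboxylate transporter gene Slc16a1 fell by 0.49 ± 0.07 on the log2 scale and the ammonium transporter gene Rhbg by 1.31 ± 0.32, whereas the proton pump subunit gene Atp6v1b2 rose by 0.30 ± 0.07. The Atp6v1b2 call was lost without vehicle replicate 1 (edgeR adjusted p = 0.0528). With library totals as the scale 4 genes of this list rose and 4 fell.

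Of 9 tested genes of enzymes that use bicarbonate 3 rose, 2 fell and 4 were not called, with a median of -0.032. Cps1, which encodes the mitochondrial enzyme that joins bicarbonate and ammonia, fell from 896 ± 24.5 to 368 ± 12.1 CPM, while the pyruvate carboxylase gene Pcx rose by 0.45 ± 0.08 on the log2 scale. Pccb fell by 0.33 ± 0.08 and Mccc2 rose by 0.49 ± 0.14. Without vehicle replicate 1, 1 gene of the list rose and 1 fell, and neither Pccb (edgeR adjusted p = 0.0563) nor Mccc2 (adjusted p = 0.0998) was called; Mccc2 was not called without SGC-CBP30 replicate 1 either (adjusted p = 0.105).

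The list of other hypoxia-inducible genes was mixed. Of 16 tested 5 rose, 1 fell and 10 were not called, with a median of 0.039. The glucose transporter gene Slc2a1 rose by 0.44 ± 0.07, the collagen hydroxylase gene P4ha1 by 0.46 ± 0.08 and the adrenomedullin gene Adm by 0.87 ± 0.21, and Ndrg1 fell by 0.34 ± 0.06. The Adm call was lost without SGC-CBP30 replicate 1 (edgeR adjusted p = 0.0689). The difference between Car9 and this list was not tested.

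**Figure D5:**
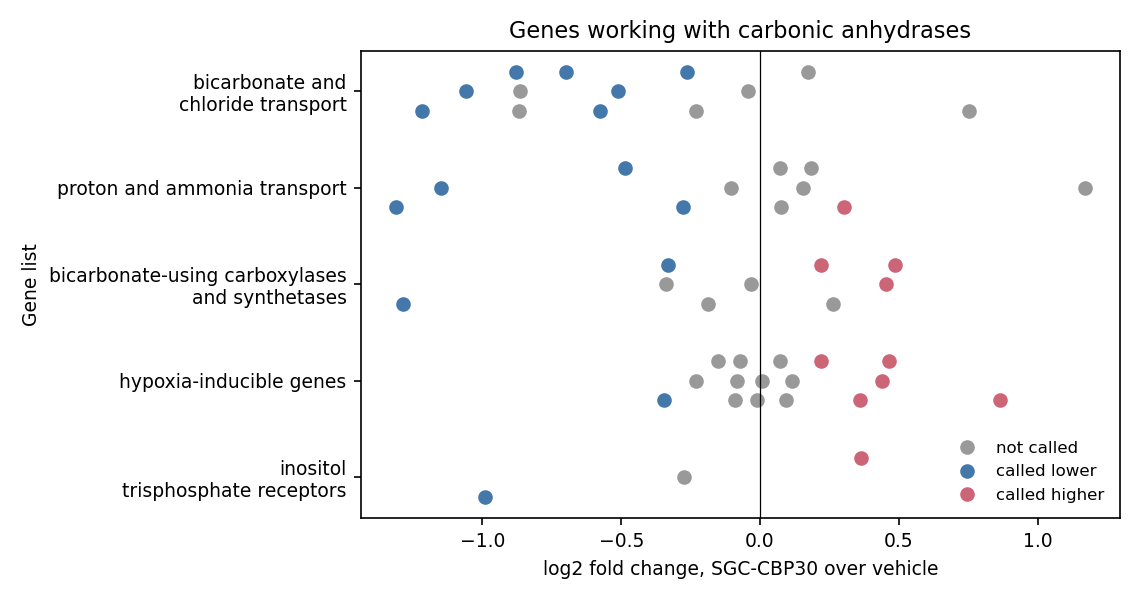
Log2 fold change (SGC-CBP30 over vehicle) of each tested gene in 5 lists set beside the carbonic anhydrases, 1 of them of hypoxia-inducible genes. Each gene is 1 point, blue where called lower, red where called higher and grey where not called. The vertical offsets only separate points. The bicarbonate and chloride list has 7 blue points and 0 red ones, and the hypoxia list 1 blue and 5 red. Over all tested genes 16.3% were called lower and 13.6% higher.

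Marker lists of intestinal cell types are set beside these values, with 16.3% of all tested genes called lower and 13.6% higher. Of 8 absorptive enterocyte markers 4 fell, 1 rose and 3 were not called, and their sum was 51148 and 51722 CPM in vehicle libraries and 42118 and 40086 CPM in treated ones. Most of the difference in that sum was the sucrase-isomaltase gene Sis, which fell from a mean of 15115 to 7284 CPM, while the apolipoprotein gene Apoa4 rose from 4267 to 5760 CPM. Of the 7 markers of colonic surface epithelium, of which Car1 was at 0 in all libraries and Saa1 had 1 count, 5 were tested, and of these 4 fell and 0 rose. The sum of the list was 699 and 706 CPM in vehicle and 425 and 418 CPM in treated libraries. Its largest parts, Emp1 and Slc26a3, fell from means of 296 to 256 CPM and 269 to 146 CPM. Aqp8 fell from a mean of 85.2 to 2.06 CPM and Ceacam20 from 50.8 to 16.4 CPM, while Ly6g was not called. Slc26a3 stands in this list and in that of bicarbonate and chloride transport. Of 6 Paneth cell markers 3 fell and 0 rose, of 5 crypt base stem cell markers 2 fell and 1 rose, and of 7 goblet cell markers 2 fell and 1 rose. Of 8 enteroendocrine markers 2 fell and 1 rose, and of 6 tested tuft cell markers 1 fell and 0 rose. Of the 7 general epithelial markers 1 fell and 3 rose. The part of these markers' cells in the lower carbonic anhydrase levels was not tested.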

How the data were processed

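RNA sequencing covered 4 libraries of irradiated mouse intestinal organoids, 2 given vehicle and 2 given SGC-CBP30. Per the submitters' processing notes, HISAT2 2.0.5, StringTie 1.3.3b, featureCounts 1.5.0-p3 and the build mm9 were used, with no roles given; 98.5% of 51476 shared gene identifiers had the coordinates of GENCODE M21 on GRCm38, which is used here. Per the file headers, the authors deposited whole-number counts per gene, FPKM, group means (a signal on the scale of normalized counts), a log2 fold change, and a p-value with an adjusted p from an unnamed test. The deposited FPKM equal counts divided by the deposited gene length and 1 scaled total per library, and the results rest on counts and lengths besides the authors' values named as such. The table breaks off within its last line, a gene without counts, which was left out.

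Counts were tested with edgeR 4.0.16 in R 4.3.3 over the whole table (filterByExpr, TMM, robust dispersions, quasi-likelihood F test, Benjamini-Hochberg adjustment), with calls made below an adjusted p of 0.05. The SE is the log2 fold change divided by the square root of F. The procedure was tested on simulated data. CPM are TMM-normalized, with mean ± SD (n = 2). Intervals and floors cover counting error only. Members and lists were chosen with earlier results of these data known. Named genes are all members, other family genes with a count, and up to 4 called genes of smallest p per list. They also include the 5 named protein-coding genes most like Car4, leaving out clone names of the Gm and Rik kinds. Itpr2, Saa1, Slc4a2, Slc4a3, Slc4a8, Slc4a10, Slc12a2, Slc26a4, genes overlapping a family gene and the marker genes stand outside that rule. Alternatives were DESeq2 1.42.0, library totals, upper quartile factors, 2 other filters, each library left out, and a replicate block.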

Additional observations from a re-analysis of the deposited data

How the results depend on the processing

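The tested members other than Car4 kept a lower level with SGC-CBP30 under every alternative that gave a value. Car4 had 0 counts in both treated libraries, so its direction was fixed in every setting and shows no stability. Over all 7 tested members, Car4 included, 62 of 67 values kept their side of the threshold. The other 5 were all of Car2, whose call was lost with DESeq2 (log2 fold change -0.37, adjusted p = 0.139), library totals (-0.29, adjusted p = 0.101), upper quartile factors (-0.33, adjusted p = 0.0674), and without vehicle replicate 2 or SGC-CBP30 replicate 2; leaving out 1 library gave Car2 values from -0.52 to -0.20. Of the other named genes, 175 of 180 values kept their side and the other 5 became weaker. DESeq2 called 4 members and gave no adjusted p for Car4, and with at least 50 counts in 2 libraries neither Car4 nor Car7 was tested. Over all genes 4401 were called, 2004 higher and 2397 lower; library totals gave 2907 higher and 1924 lower. Leaving out 1 library gave 2899 (without vehicle replicate 2) to 4557 calls over all genes, 5 to 6 calls among the members, and 2 to 4 among the enzymes that use bicarbonate; the lone library left in a group is then assumed to vary like the other group. With library totals 8 proton and ammonia transport genes were called. The deviations of libraries with the same replicate number had a correlation of -0.024, so no pairing by number was visible in the counts. With so few libraries this cannot show that same-numbered samples were prepared apart. With a replicate block 4703 genes and 6 members were called. Depth limits what can be said of Car7, Car5b and the 8 family genes outside the members.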
